A study of Mus musculus with 15 samples.

Results

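The 6 genes described here are the 3 uncoupling proteins Ucp1, Ucp2 and Ucp3 and 3 genes known for brown fat, Cidea, Elovl3 and Dio2. They were picked by name from 39179 genes counted in quadriceps muscle of 15 mice, because their levels in single mice in these same data had set muscle Ucp3 apart from transcripts of brown fat. Their levels and fold changes are therefore given as a description, with no test. All 15 mice had a C57BL/6 background. The groups were 4 mice of genotype MRPS5 WT at 3 mo (wild type), 4 of MRPS5 V338Y at 3 mo, 3 MRPS5 WT at 19 mo and 4 MRPS5 V338Y at 19 mo. V338Y, a mutation of the mitochondrial ribosomal protein MrpS5, was homozygous according to the study's methods and not limited to muscle. Mice are named here by the number in their label, 1 to 4 in both groups at 3 mo, 2, 4 and 5 in wild-type mice at 19 mo and 2 to 5 in V338Y mice at 19 mo.

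The libraries held 8250653 to 18968132 counts per mouse. The muscle fibre markers Acta1, Ckm, Myh4, Myh1, Myh2, Myh7, Tnnt3 and Mb summed to 69301 to 137277 CPM (TMM-normalized counts scaled to the same library size in each mouse) in every mouse, as the tissue label says. The mutation changes a codon, so the count of Mrps5 does not check the genotype label, and its mean per group lay between 17.4 and 25.7 CPM. The ages differed in sex-linked transcripts. The methods call both 3 mo groups and the 19 mo wild-type group female and give no sex for the 19 mo V338Y group, whereas Xist, which female cells transcribe from the inactive X chromosome, did not exceed 0.575 CPM in the 3 mo mice, and the Y-linked Ddx3y stood there at 163 to 202 CPM. In the 19 mo mice Xist was at least 506 CPM and Ddx3y at most 0.083 CPM. In every comparison of the ages below, age and this difference cannot be told apart. In bulk muscle, moreover, fewer cells of a type and less RNA per cell cannot be told apart.

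Uncoupling proteins are carriers of the inner mitochondrial membrane. Ucp1 lets protons back into the matrix of brown fat cells and so turns the proton gradient into heat. Ucp3 is the form typical of skeletal muscle and is induced when fatty acids are used as fuel, whereas Ucp2 is found in many cells, leukocytes among them. Cidea sits on lipid droplets, Elovl3 lengthens saturated fatty acids and Dio2 converts thyroxine to the active thyroid hormone inside the cell. These 3 genes are induced in brown fat together with Ucp1 by cold and adrenergic signals.

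Ucp3 and Ucp2 are neighbours on chromosome 7 of GRCm38, on the + strand at chr7:100472990-100486432 and chr7:100493337-100502020, with 6904 bases between them. Ucp1 lies at chr8:83290352-83298452 on the + strand, Dio2 at chr12:90724552-90738438 on the - strand and Elovl3 at chr19:46131897-46135694 on the + strand. No stretch as long as a read occurred in the transcripts of a member and also in those of another gene, and the longest run shared between any pair of uncoupling proteins was 24 bases, in Ucp2 and Ucp3, so reads of these genes were not ambiguous between them. Genes on the opposite strand overlap 5 of the 6 members. Over all 15 mice they held 10 counts for Dnajb13 at Ucp2, 190 for Gm10603 at Ucp3, 25 for B430212C06Rik at Cidea, 316 for Pitx3 at Elovl3 and 38 for Gm26512 at Dio2. Elovl3 itself held fewer counts than Pitx3, with 240 in young wild-type, 13 in young V338Y, 0 in old wild-type and 2 in old V338Y mice. The library kit was stranded according to the methods.

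The promoters of Ucp3 and Ucp2 are shown because these neighbours had unlike levels and unlike changes with age, and those of Ucp1 and Dio2 because they rose together in single mice. Each is the 250 bases before the RefSeq start on GRCm38.p6, read along the strand of the gene. Capitals mark 4 motifs searched on both strands, AGGTCA, to which nuclear receptors bind, CAGCTG, an E-box of myogenic factors, TGACGTCA, the cAMP response element, and TATAAA, the TATA box.
Ucp3 (chr7:100472741-100472990, + strand): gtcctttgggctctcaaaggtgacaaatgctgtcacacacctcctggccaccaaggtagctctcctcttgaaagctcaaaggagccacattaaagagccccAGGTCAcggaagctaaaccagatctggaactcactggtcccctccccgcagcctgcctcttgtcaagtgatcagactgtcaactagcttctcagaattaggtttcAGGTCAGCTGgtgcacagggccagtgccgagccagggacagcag
Ucp2 (chr7:100493108-100493357, + strand): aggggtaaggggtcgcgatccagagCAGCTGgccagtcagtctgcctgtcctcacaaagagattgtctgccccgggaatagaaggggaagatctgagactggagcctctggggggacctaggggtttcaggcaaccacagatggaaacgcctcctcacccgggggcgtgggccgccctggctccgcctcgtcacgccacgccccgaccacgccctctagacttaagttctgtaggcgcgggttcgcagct
Ucp1 (chr8:83290098-83290347, + strand): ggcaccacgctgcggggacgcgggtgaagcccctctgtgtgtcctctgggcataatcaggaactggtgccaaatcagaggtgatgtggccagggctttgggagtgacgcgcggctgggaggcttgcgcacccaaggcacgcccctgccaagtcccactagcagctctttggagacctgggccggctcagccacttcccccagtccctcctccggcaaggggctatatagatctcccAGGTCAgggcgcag
Dio2 (chr12:90739039-90739288, - strand): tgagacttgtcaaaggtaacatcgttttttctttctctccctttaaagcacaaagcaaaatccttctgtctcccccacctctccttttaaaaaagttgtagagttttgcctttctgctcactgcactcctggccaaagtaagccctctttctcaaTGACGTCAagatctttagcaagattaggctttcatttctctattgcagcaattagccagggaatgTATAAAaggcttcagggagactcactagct
In Ucp3 the motif AGGTCA began 149 and 44 bases before the start, and the CAGCTG at 40 bases overlapped the latter. The windows of Ucp1, with AGGTCA at 14 bases, and of Ucp2, with CAGCTG at 225 bases, held 1 match each. The cAMP response element of Dio2 began at 95 bases and its TATA box at 30 bases. Of 32851 mouse promoter windows of this length, 14.0% held AGGTCA, 13.0% CAGCTG, 12.4% TATAAA and 1.55% TGACGTCA. These matches are letters, not measured binding.

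Ucp1 was a transcript of few mice. At 3 mo its levels in wild-type mice 1 to 4 were 328, 2.70, 1.39 and 37.0 CPM, from 3595, 38, 21 and 408 counts. In V338Y mice at 3 mo it stood at 4.25 CPM in mouse 1, from 74 counts, and at 0 counts in mice 2, 3 and 4. All 4 young wild-type mice thus held Ucp1, over a range of more than 2 orders of magnitude, and 1 of 4 young V338Y mice did. At 19 mo it had 0 counts in all 3 wild-type mice, and 1 count in V338Y mouse 2 and 5 counts in V338Y mouse 5. Over the series 8 of 15 mice had no count, and wild-type mouse 1 at 3 mo held 87.8% of the summed CPM. A library with 0 counts allows up to 3 counts, equal to 0.187 to 0.346 CPM in these 8 mice, for counting error only. Set against 3 counts over the whole 19 mo wild-type group, the young wild-type mean of 92.2 ± 158 CPM (SD, n = 4) was at least 1281-fold higher, and at least 190-fold higher without mouse 1. Between genotypes at 3 mo the groups overlapped, since V338Y mouse 1 lay above wild-type mice 2 and 3. The fitted log2 fold change, V338Y over wild type, was -6.03 (SE 1.72) with all mice and -3.29 without wild-type mouse 1. Without V338Y mouse 1 its group had 0 counts, and no fold is given.

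Cidea, at chr18:67343604-67367785 on the + strand, had the same mice at its top but was counted more widely. In wild-type mice 1 to 4 at 3 mo it measured 68.9, 1.35, 4.78 and 11.4 CPM, and in V338Y mice 1 to 4 at 3 mo 8.45, 1.14, 0.827 and 0.576 CPM. At 19 mo the levels were 0.124, 0.074 and 0.579 CPM in wild-type mice 2, 4 and 5, and 0.301, 0, 0.502 and 5.66 CPM in V338Y mice 2 to 5. Every young wild-type mouse lay above every old wild-type mouse, while the V338Y groups overlapped because old mouse 5 lay above all but 1 of the young ones. With age the fitted log2 fold change was -6.41 (SE 1.67) in wild-type mice, or -4.51 without young mouse 1. In V338Y mice it was -0.75 (SE 1.14), and it turned on single animals, being -3.58 without old mouse 5 and 0.98 without young mouse 1. Between genotypes at 3 mo it was -2.73 (SE 1.09), -0.90 without wild-type mouse 1 and -4.60 without V338Y mouse 1.

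Elovl3, like Ucp1, had 0 counts in all 3 old wild-type mice. It reached 19.8 CPM in young wild-type mouse 1, and 0.071, 0.531 and 1.27 CPM in mice 2 to 4. Young V338Y mouse 1 had 0.690 and mouse 4 had 0.115 CPM, and mice 2 and 3 had no count. At 19 mo only V338Y mouse 2 had counts, 2 in number. The highest mouse held 87.3% of the summed CPM, and 8 of 15 mice had no count, a pattern across mice close to that of Ucp1. The young wild-type mean of 5.42 ± 9.60 CPM (SD, n = 4) was at least 75.2-fold above 3 counts over the old wild-type group, and at least 8.66-fold without mouse 1. Between genotypes at 3 mo the fitted log2 fold change was -4.31 (SE 1.54), with overlapping groups, and -6.94 without V338Y mouse 1, when that group held 1 count. Without wild-type mouse 1 or 4 it had too few counts for the fit. Without wild-type mouse 1 the means were 0.624 CPM in wild-type and 0.201 CPM in V338Y mice.

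Dio2 differed from these genes in that every mouse expressed it. In wild-type mice 1 to 4 at 3 mo it measured 15.6, 1.42, 2.26 and 4.90 CPM, and in young V338Y mice 1 to 4 4.02, 1.72, 3.23 and 2.07 CPM. At 19 mo it measured 1.80, 2.67 and 2.48 CPM in wild-type mice 2, 4 and 5 and 9.02, 3.89, 2.81 and 6.24 CPM in V338Y mice 2 to 5. The same young wild-type mouse was highest, but the 4 old V338Y mice all lay above the 3 old wild-type mice. By mean the order was young wild type (6.04 ± 6.54), old V338Y (5.49 ± 2.75), young V338Y (2.76 ± 1.06) and old wild type (2.32 ± 0.455 CPM, SD, n = 4, 4, 4 and 3), and each pair of neighbours in this order overlapped. V338Y over wild type at 19 mo gave a log2 fold change of 1.27 (SE 0.40). With age it was 0.97 (SE 0.38) in V338Y mice, and 0.64 without old mouse 2. In wild-type mice it was -1.35 (SE 0.73) with age, and -0.28 without young mouse 1. At 3 mo the value between genotypes, -1.05 (SE 0.64), became 0.028 without that mouse.

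**Figure D1:**
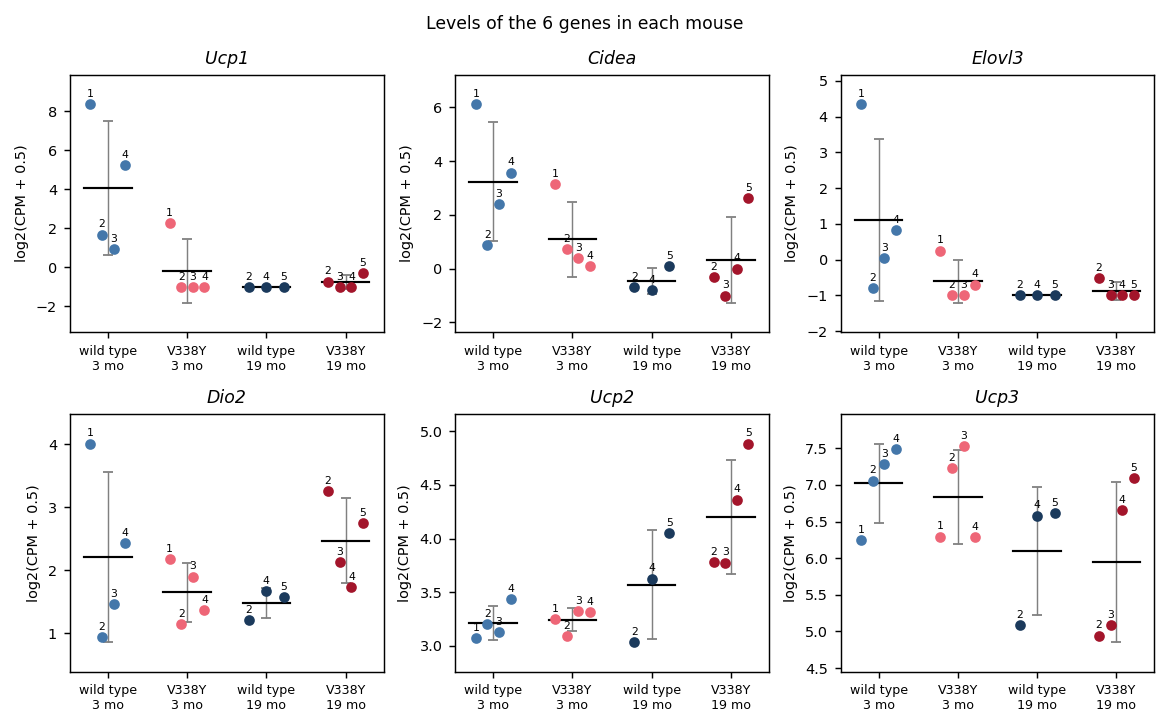
Level of each of the 6 genes on the scale log2(CPM + 0.5), so that a mouse with no count lies at -1; points are mice with their label numbers, black lines the group mean and grey bars the SD on this scale. Young wild-type mouse 1 is highest for Ucp1, Cidea, Elovl3 and Dio2 and lowest of its group for Ucp2 and Ucp3, and the axis of each panel has its own range.

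Fat cell markers varied along with the brown fat genes in part. The sum of Adipoq, Plin1, Lep, Retn, Cfd and Fabp4, with 6 of 6 counted in every mouse, was 1404 CPM in young wild-type mouse 1, 363 and 487 in mice 2 and 3 and 799 in mouse 4. It was 716 CPM in young V338Y mouse 1 and 278 to 403 CPM in the other 3. The 3 young mice with the most Cidea were thus the 3 with the most fat cell transcripts. At 19 mo the sum ran from 206 to 440 CPM in wild-type mice. In V338Y mice it ran from 242 to 1251 CPM, and mouse 4, with the 1251 CPM, had no Ucp1 count and 0.502 CPM of Cidea. Per 100 counts of Adipoq, an adipokine of white and brown fat cells, there were 311 counts of Ucp1 in young wild-type mouse 1, 49.2 in mouse 4, 7.82 in mouse 2, 3.07 in mouse 3 and 6.36 in young V338Y mouse 1, against 0.724 in old V338Y mouse 5. These are ratios to a single gene, and they differed between mice. The part of fat cells in the levels of the 4 genes was not tested. Ucp1 and Cidea also stood in unlike ratios, 4.76, 2.0, 0.292 and 3.24 counts of Ucp1 per count of Cidea in young wild-type mice 1 to 4, 0.503 in young V338Y mouse 1 and 0.057 in old V338Y mouse 5.

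**Figure D2:**
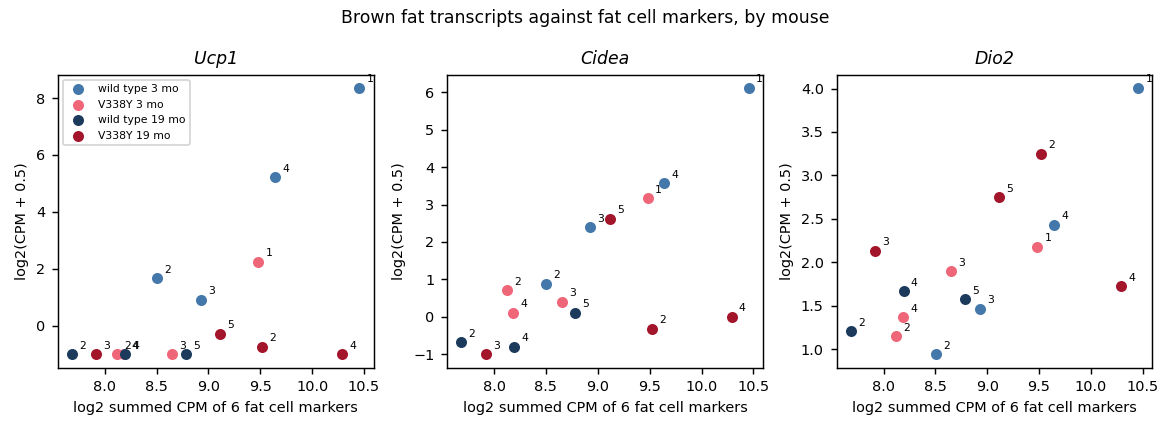
Ucp1, Cidea and Dio2 (vertical axes, log2(CPM + 0.5)) against the summed CPM of 6 fat cell markers (horizontal axis, log2), 1 point per mouse with its number, coloured by group. Young wild-type mouse 1 is highest on both axes in each panel, while old V338Y mouse 4, next highest in fat cell markers with 1251 CPM, has no Ucp1 count.

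Ucp2 lay low and even in young mice and higher in old V338Y mice. In wild-type mice 1 to 4 at 3 mo it measured 7.93, 8.73, 8.23 and 10.3 CPM, and in V338Y mice 1 to 4 9.02, 8.01, 9.51 and 9.45 CPM. At 19 mo wild-type mice 2, 4 and 5 had 7.71, 11.9 and 16.0 CPM, and V338Y mice 2 to 5 had 13.2, 13.2, 20.1 and 29.1 CPM. The old V338Y mice all lay above the young ones, and old wild-type mouse 2 lay below all 8 young mice. The means rose in the order young wild type (8.81 ± 1.07), young V338Y (9.0 ± 0.697), old wild type (11.9 ± 4.17) and old V338Y (18.9 ± 7.51 CPM, SD, n = 4, 4, 3 and 4), with overlap between neighbours. With age the log2 fold change was 1.09 (SE 0.24) in V338Y mice, between 0.80 and 1.22 with any 1 mouse left out, and 0.43 (SE 0.22) in wild-type mice, between 0.14 without old mouse 5 and 0.66 without old mouse 2. V338Y over wild type gave 0.04 (SE 0.12) at 3 mo and 0.71 (SE 0.34) at 19 mo, the latter 0.42 without V338Y mouse 5. At 19 mo the level was higher in V338Y mice in each of the 3 same-numbered pairs, and with the mouse number as a block the log2 fold change was 0.84 (SE 0.11).

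Leukocyte transcripts moved in the same groups. The sum of 14 leukocyte markers was 241 to 349 CPM in young wild-type, 267 to 441 CPM in young V338Y, 356 to 412 CPM in old wild-type and 475 to 538 CPM in old V338Y mice, and each of the 14 was counted in every mouse. With age 5 of 14 (35.7%) were higher in wild-type and 9 of 14 (64.3%) in V338Y mice at an edgeR adjusted p under 0.05. Of all genes 18.3% and 24.4% were higher, in the same order. The median log2 fold changes of the 14 were 0.44 and 0.71. Among old V338Y mice the sum was 475 and 478 CPM in mice 4 and 5, which held the most Ucp2, and 538 and 492 CPM in mice 2 and 3. Single markers of the list differed from the sum, in which Lyz2 weighed most. Ptprc, the common leukocyte antigen, was highest in mouse 5, with 33.6 CPM against 19.6 to 27.6 CPM in mice 2 to 4, as was Coro1a, with 19.3 CPM against 6.77 to 11.7 CPM. Lyz2, Laptm5, Tyrobp and Cd52 were also highest in mouse 5, and Itgam in mouse 2. Adgre1, Csf1r, Cd68, Mrc1, Cd163, C1qa and C1qb went the other way and were lowest of the group in mouse 5. The neutrophil markers S100a8, S100a9, Ngp, Camp and Retnlg summed to 465 CPM in mouse 5 and to 20.8 CPM or less in the other 14 mice. The part of these cells in the level of Ucp2 was not tested.

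The muscle form, Ucp3, was the most abundant uncoupling protein in 14 of 15 mice. Its level per kilobase of the longest coding transcript had a median of 39.8 CPM per kb, and its lowest value, 12.4, exceeded the highest of Ucp2, 7.29 CPM per kb. Young wild-type mouse 1 was the exception, with 200 CPM per kb of Ucp1 and 30.9 CPM per kb of Ucp3. In CPM, Ucp3 measured 75.6, 133, 155 and 179 in wild-type mice 1 to 4 at 3 mo and 78.0, 149, 185 and 77.5 in V338Y mice 1 to 4. At 19 mo it measured 33.5, 95.2 and 97.4 CPM in wild-type mice 2, 4 and 5 and 30.3, 33.6, 100.5 and 136 CPM in V338Y mice 2 to 5. The 3 lowest values were all from old mice, of both genotypes, but each pair of groups compared overlapped. The means were 136 ± 44.3 and 122 ± 53.5 CPM at 3 mo and 75.4 ± 36.3 and 75.03 ± 51.8 CPM at 19 mo (SD, wild type before V338Y, n = 4, 4, 3 and 4). With age the log2 fold change was -0.85 (SE 0.38) in wild-type and -0.69 (SE 0.49) in V338Y mice. Both depended on single animals, the former being -0.50 without old mouse 2 and -1.08 without old mouse 5, the latter -0.42 without young mouse 3 and -1.13 without old mouse 5. V338Y over wild type gave -0.15 (SE 0.31) at 3 mo and 0.03 (SE 0.58) at 19 mo, and either value changed sign when certain mice were left out (-0.41 to 0.02 and -0.42 to 0.29). Young wild-type mouse 1, highest in the 4 brown fat genes, had the lowest Ucp3 of its group.

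Since Ucp2 was higher and Ucp3 lower in the means of old mice, their ratio also changed. Ucp3 over Ucp2 in CPM was 9.53, 15.2, 18.9 and 17.3 in young wild-type mice and 8.65, 18.6, 19.4 and 8.20 in young V338Y mice. It was 4.35, 8.03 and 6.07 in old wild-type and 2.29, 2.54, 5.01 and 4.67 in old V338Y mice. Within each genotype the old mice all lay below the young ones in this ratio, though Ucp3 by itself overlapped.

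**Figure D3:**
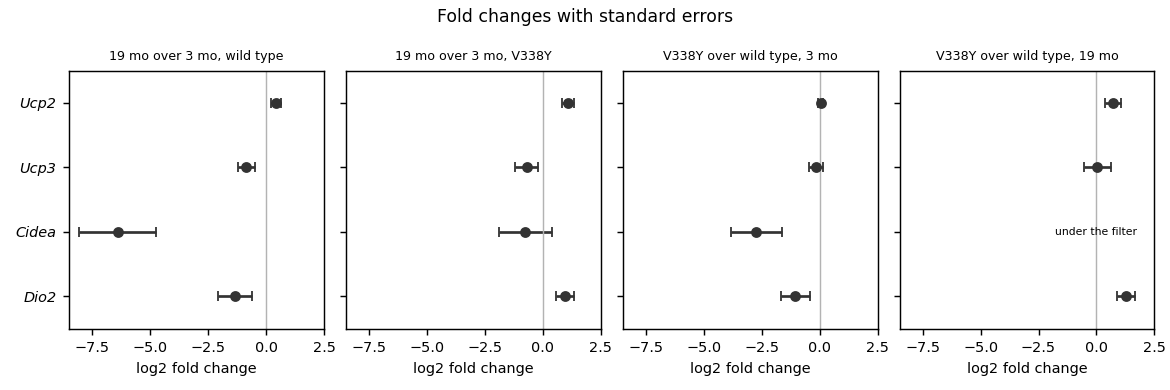
Fitted log2 fold changes (points) with their standard errors (bars) for Ucp2, Ucp3 and Dio2 in the 4 comparisons of age and genotype. Cidea is shown in 3, as it had too few counts between genotypes at 19 mo. Ucp1 and Elovl3 are left out, since the old wild-type mice had no counts of them and the V338Y mice too few with age. Only the comparison of genotypes at 3 mo gave them a fold, -6.03 and -4.31 in this order. The values for Ucp3 run from -0.85 to 0.03 and those for Ucp2 from 0.04 to 1.09, while Cidea reached -6.41 with age in wild-type mice.

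The share of all genes that passed the same thresholds gives the background for these members, whose choice rested on the same mice. With age in wild-type mice 36.2% of 13657 genes passed an edgeR adjusted p under 0.05 (18.3% higher and 17.8% lower at 19 mo) and 43.4% did not overlap between the groups. All 6 members entered the fit, Ucp1, Cidea and Elovl3 through their counts in the young group alone, where they were high, so nothing is read from their calls. Of the 6, 2 passed, Ucp1 and Cidea, and 3 did not overlap, with Elovl3 in addition. Neither Ucp1 nor Cidea passed without old wild-type mouse 4, nor without old wild-type mouse 2, when Ucp2 alone passed. Cidea alone passed without old wild-type mouse 5 or young wild-type mouse 4, and Elovl3 passed in addition without young wild-type mouse 2. With age in V338Y mice 46.9% of 13868 genes passed (24.4% higher and 22.5% lower) and 42.2% did not overlap. Ucp1 and Elovl3 had too few counts there. Of the other 4 members 1 passed and did not overlap, Ucp2, and it passed with any 1 mouse left out, when Dio2 or Cidea made it 2 in 3 cases (without old mouse 4 or 5 or young mouse 1). In these cases 5708 of 13728, 6391 of 13565 and 5824 of 13770 genes passed, in this order. Cidea entered through the young group alone and passed without old mouse 5, the 1 old mouse above the filter, so nothing is read from its call. Between genotypes at 3 mo 0.075% of 13333 genes passed, 4.71% did not overlap and 1293 had an unadjusted p under 0.05 with edgeR. Of the 6 members 0 passed and all overlapped (3 had an unadjusted p under 0.05 with edgeR, 0 passed with DESeq2). The 3 were Ucp1, Cidea and Elovl3. Ucp1 and Elovl3 entered this fit through the wild-type group alone, where they were high, so nothing is read from their unadjusted p. At 19 mo 0.0434% of 13833 genes passed, 9.79% did not overlap and 1235 had an unadjusted p under 0.05 with edgeR. Of the 3 members tested (Ucp2, Ucp3 and Dio2) 0 passed, 1 had an unadjusted p under 0.05 and Dio2 did not overlap. DESeq2 called 0 of the 3. With the mouse number as a block 0.795% passed, Ucp2 among them. The interaction of age and genotype was passed by 0% of 14128 genes with edgeR, 1361 of which had an unadjusted p under 0.05, and by 26 genes with DESeq2, no member among them. The age comparisons and the genotype comparisons share mice and are not independent of each other.

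Within groups, the 6 genes fell into 2 patterns. After the mean of each group was subtracted on the scale log2(CPM + 0.5), Pearson's r over the 15 mice was 0.90 between Ucp1 and Elovl3, 0.85 between Ucp1 and Dio2, 0.83 between Ucp1 and Cidea and 0.89 between Elovl3 and Dio2. Ucp2 and Ucp3 correlated at 0.81, and Ucp3 with Ucp1 at -0.28. These are descriptions over mice that share a few extreme animals, young wild-type mouse 1 above all. The genes most like each member were sought among 13953 genes in the same way, and the 5 with the highest r were taken.

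For Ucp1 they were Clstn3 (r = 0.94), Otop1 (0.93), Hsd17b12 (0.93), Gk (0.92) and Mrap (0.92). Otop1 is a proton channel known from brown fat, Gk phosphorylates glycerol, Hsd17b12 acts in the lengthening of fatty acids and Mrap serves melanocortin receptors, in fat cells among others. Otop1 measured 11.3, 0.213, 0.199 and 1.99 CPM in young wild-type mice 1 to 4 and at most 0.900 CPM in all others. Like Ucp1 it was thus high in mouse 1 and next in mouse 4. Elovl3 was most like Letmd1 (0.94), Ifi27 (0.93), Pcna-ps2 (0.93), Mecr (0.92) and Otop1 (0.92), and Letmd1, a protein of the inner mitochondrial membrane, measured 22.3 CPM in young wild-type mouse 1 against 7.03 to 10.1 CPM in the other 14 mice. Pcna-ps2 measured 0.821 CPM in young wild-type mouse 1, 0 in the other wild-type mice and 0.827 to 1.41 CPM in the V338Y mice. Cidea was most like Plin2 (0.94), which coats lipid droplets, Adtrp (0.93), Gk (0.91), Asns (0.90) and Cox6a1 (0.89). Plin2 measured 73.0 CPM in young wild-type mouse 1 and 67.8 CPM in old V338Y mouse 5, the animal with the most Cidea in its group. Dio2 was most like Atat1 (0.95), Clstn3 (0.92), Hsd17b12 (0.91), Tkt (0.91) and Ifi27 (0.90). Tkt, transketolase of the pentose phosphate pathway, measured 120.3 CPM in old V338Y mouse 2, the highest of its group for Dio2 as well.

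For Ucp3 the list opened with Mlycd (0.96), which removes the malonyl-CoA that blocks fatty acid entry into mitochondria, followed by Ubp1 (0.94), Taf5 (0.92), Pdk4 (0.92) and Mau2 (0.92). Pdk4 holds back glucose oxidation by inhibiting pyruvate dehydrogenase and is a target of PPAR receptors. It measured 63.1, 1089 and 1960 CPM in old wild-type mice 2, 4 and 5 and 93.3, 54.6, 1157 and 2604 CPM in old V338Y mice 2 to 5. In the young mice it ranged from 414 to 1519 CPM. The 3 old mice with Ucp3 near 30 CPM, wild-type mouse 2 and V338Y mice 2 and 3, were the 3 with Pdk4 under 100 CPM. Mlycd was also lowest in them, with 34.0, 26.5 and 29.9 CPM against 49.9 to 115 CPM in the other 12 mice. Ucp2 was most like Polg (0.94), the polymerase of mitochondrial DNA, Atp6ap2 (0.92), Dusp18 (0.92), Ighg2b (0.92) and Slc1a1 (0.91). Dusp18 measured 22.4 and 28.7 CPM in wild-type and V338Y mouse 5 at 19 mo, the highest of their groups for Ucp2, and at most 8.22 CPM in all other mice.

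**Figure D4:**
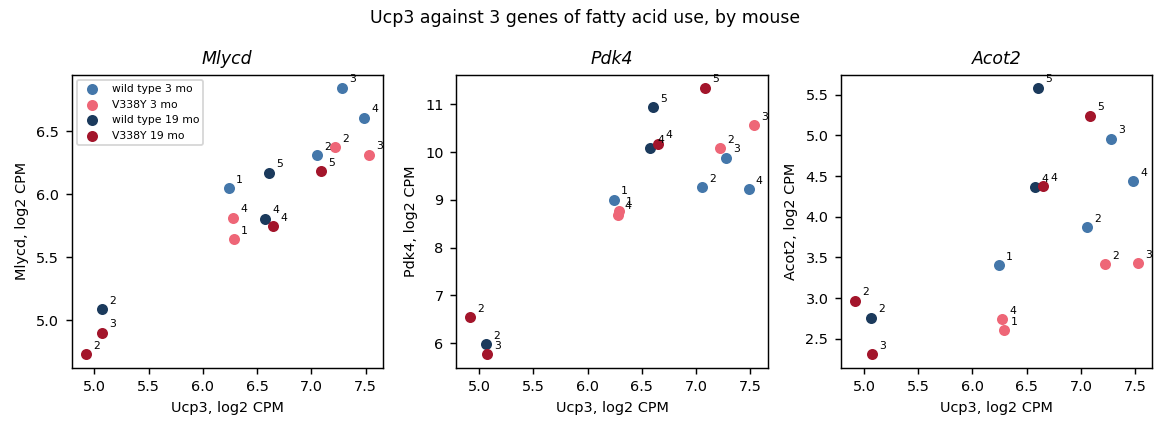
Mlycd, Pdk4 and Acot2, genes of fatty acid use, against Ucp3 in each mouse (all axes log2 of CPM), with the mouse number at each point and colours for the groups. Old wild-type mouse 2 and old V338Y mice 2 and 3 form the lower left corner, with Pdk4 at 54.6 to 93.3 CPM.

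Genes related to the members were tested in the fit of all genes. The share of each list is to be read against the shares of all genes given above. Of 15 relatives (carriers, Cide proteins, elongases and deiodinases) 10 were tested in wild-type mice, where 4 fell with age (40.0%) and 0 rose, with a median log2 fold change of -0.80 against 0.02 over all genes. Of the 4, Elovl2 (0 to 0.148 CPM in old wild-type mice) entered the fit through the young group alone, so nothing is read from its call. In V338Y mice 9 relatives were tested, of which 2 fell (22.2%) and 3 rose (33.3%), with a median of 0.02 against 0.07. The ADP/ATP carrier of muscle, Slc25a4, fell in both, by 0.81 (SE 0.11, edgeR adjusted p = 0.00091) and by 0.92 (SE 0.16, adjusted p = 0.0014) on the log2 scale. The carrier Slc25a30, a relative of the uncoupling proteins, fell by 0.87 (SE 0.16, adjusted p = 0.0034) and by 1.36 (SE 0.20, adjusted p = 0.00070). These carriers fell in wild-type and V338Y mice alike in sign, and in both cases the groups did not overlap. Elovl6, which lengthens palmitate, rose in V338Y mice by 4.56 (SE 0.83, adjusted p = 0.0020), from 0.667 to 2.53 CPM at 3 mo to 9.74 to 97.3 CPM at 19 mo. Its highest value, like that of Dio2 and Tkt, came from old V338Y mouse 2. That mouse and old V338Y mouse 4, which had the most fat cell markers of their group, also stood apart in 8 markers of simple and mammary epithelium (Krt8, Krt18, Krt19, Epcam, Csn2, Csn1s1, Wap and Lalba), which summed to 32.6 and 33.9 CPM there and to at most 5.33 CPM in the other 13 mice. The part of such cells in the levels of Dio2, Elovl6 and the fat cell genes was not tested.

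Of 24 other genes of brown and beige fat cells, 21 were tested in wild-type mice, where 6 fell with age (28.6%) and 0 rose, at a median of -0.33. In V338Y mice 18 were tested, of which 6 rose (33.3%) and 4 fell (22.2%), at a median of 0.42, and the 10 became 6 without young mouse 2 or 3. The members that fell in both were subunits of cytochrome c oxidase that muscle uses too, Cox7a1 (log2 fold changes of -1.01, SE 0.12, and -1.17, SE 0.22) and Cox8b (-0.77, SE 0.11, and -1.15, SE 0.12), with edgeR adjusted p from 0.00014 to 0.0024. Slc27a2, a fatty acyl-CoA synthetase, measured 2.55 to 9.82 CPM in young and 0 to 0.148 CPM in old wild-type mice. Cpn2, also among the 6 that fell, measured 0.907 to 2.19 CPM and 0 to 0.083 CPM there. Both entered the fit through the young group alone, where they were high, so nothing is read from their calls. The genes that rose in V338Y mice included Slc36a2, an amino acid transporter of brown fat (1.94, SE 0.44, adjusted p = 0.0061), Prdm16, a regulator of brown fat identity (0.73, SE 0.19, adjusted p = 0.011), and Ntrk3, a neurotrophin receptor (2.83, SE 0.46, adjusted p = 0.0011). Ntrk3 measured 0.115 to 0.461 CPM in young V338Y mice and entered this fit through the old group alone, so nothing is read from its call. Of the 24 genes 4 were highest of all mice in young wild-type mouse 1, the mouse with the most Ucp1, namely Kcnk3, a potassium channel (6.29 CPM), Otop1, Slc36a2 (20.8 CPM) and Acot11, an acyl-CoA thioesterase. Prdm16, Ebf2 and Fabp3 were instead lowest of its group in that mouse. The 24 genes summed to 839 CPM in it and to 811 to 997 CPM in the other young wild-type mice. In each of these mice Cox8b, Cox7a1 and Fabp3 weighed most in the sum. Because of this weight, the sum cannot tell whether the less abundant genes of the list were higher in mouse 1.

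Of the 14 general fat cell genes, 5 fell in wild-type mice (35.7%, against 17.8% of all genes) and 0 rose, at a median of -1.07, Fabp4, a fatty acid binding protein, by 1.57 (SE 0.48, edgeR adjusted p = 0.030) and Adipoq by 1.01 (SE 0.35, adjusted p = 0.048) on the log2 scale. In V338Y mice 4 rose (28.6%, near the 24.4% of all genes) and 0 fell, at a median of 0.88, among them Pparg, the master regulator of fat cells (1.47, SE 0.26, adjusted p = 0.0016), and Plin1, a lipid droplet coat (2.05, SE 0.47, adjusted p = 0.0061). The interaction was passed by 0 of the 14 with edgeR, 9 of them with an unadjusted p under 0.05, and by 1 with DESeq2. The 5 became 0 without old wild-type mouse 2 or 4, 3 without young wild-type mouse 1, 2 without young wild-type mouse 4 and 8 without young wild-type mouse 2. The 4 became 2 without old V338Y mouse 2 or 4 or young V338Y mouse 3 or 4, and 8 without old V338Y mouse 3.

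The 24 PPAR targets and genes of fatty acid oxidation, to which the genes most like Ucp3 belong in part, were all tested. In wild-type mice 8 fell (33.3%) and 1 rose with age, at a median of -0.43, and in V338Y mice 4 fell (16.7%) and 2 rose, at a median of -0.12. The receptor gene Ppard rose in both (1.48, SE 0.24, and 1.57, SE 0.27, edgeR adjusted p = 0.0020 and 0.0014). Slc25a20, the carnitine carrier, fell in both (-0.75, SE 0.17, and -0.74, SE 0.23, adjusted p = 0.010 and 0.025), as did Acadm, a dehydrogenase of medium-chain fatty acids (-0.66, SE 0.21, and -0.70, SE 0.20, adjusted p = 0.033 and 0.016). Pdk4 and Mlycd did not pass in either genotype, with log2 fold changes of 0.64 (SE 0.76) and -0.73 (SE 0.26) in wild-type and 0.19 (SE 0.998) and -0.54 (SE 0.31) in V338Y mice. The counts depended on single animals, the 9 being 17 without old wild-type mouse 5, 5 without old wild-type mouse 2 and 4 without old wild-type mouse 4 or young wild-type mouse 3. The 6 were 14 without old V338Y mouse 5 and 3 without old V338Y mouse 4 or young V338Y mouse 2 or 3.

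Thyroid hormone genes, listed for Dio2, passed in 5 of 14 cases in wild-type mice, 4 lower (28.6%) and 1 higher, and 3 of the 14 were lower in V338Y mice (21.4%, near the 22.5% of all genes). Crym, which binds thyroid hormone in the cytosol, fell in both (-1.35, SE 0.34, and -1.20, SE 0.19, edgeR adjusted p = 0.014 and 0.00099). The 5 became 3 without old wild-type mouse 4. Calcium cycling is the route of heat production of muscle itself. In both genotypes 6 of 9 of its genes passed, 5 higher (55.6%) and 1 lower at 19 mo. Under the alternatives the count in V338Y mice moved by more than a little in 5 cases and held in 9. In wild-type mice it held in all 13. Sln, which uncouples the calcium pump, rose by 2.81 (SE 0.37, adjusted p = 0.00076) in wild-type mice, from 0.453 to 0.994 CPM to 2.86 to 6.52 CPM, and by 3.28 (SE 0.93, adjusted p = 0.017) in V338Y mice. Among old V338Y mice Sln ranged from 0.671 CPM in mouse 3, within the young range, to 28.2 CPM in mouse 5. The myosin of slow fibres, Myh7, moved with it only in part. It measured 0.725 to 5.31 CPM in young and 9.95 to 320 CPM in old wild-type mice, and 0.604 CPM in mouse 3 and 1210 CPM in mouse 5 among old V338Y mice. In young V338Y mice 2 and 3, Myh7 stood at 30.2 and 27.2 CPM while Sln measured 0.286 and 2.07 CPM. Among old wild-type mice Sln was highest in mouse 4 and Myh7 in mouse 5. The part of fibre type in the level of Sln was not tested. The pump of fast fibres, Atp2a1, rose by 0.95 (SE 0.14, adjusted p = 0.0013) and by 0.69 (SE 0.22, adjusted p = 0.026).

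Between genotypes, 0 genes of these lists passed with edgeR at either age without the block, or in the interaction. An unadjusted p under 0.05 was reached by 26 of 86 list genes at 3 mo, 12 of 83 at 19 mo and 23 of 87 in the interaction. Over all genes tested it was reached, in the same order, by 1293 of 13333, 1235 of 13833 and 1361 of 14128. DESeq2 called at most 1 gene of a list in each. The medians of the fat cell genes, V338Y over wild type, were -0.88 at 3 mo and 1.15 at 19 mo, and those of the other 5 lists, markers aside, lay between -0.30 and 0.35. With the mouse number as a block, 0.795% of 13833 genes passed at 19 mo, and genes of several lists were higher in V338Y mice then. These were Slc25a5, a further ADP/ATP carrier (log2 fold change of 0.70, SE 0.11, edgeR adjusted p = 0.050), and Elovl6 (3.07, SE 0.51, adjusted p = 0.050) among the relatives, Slc36a2 (1.66, SE 0.23, adjusted p = 0.028) among brown fat genes and Pparg (1.23, SE 0.20, adjusted p = 0.050) and Thrsp (2.48, SE 0.12, adjusted p = 0.00032) among fat cell genes, Thrsp being a thyroid-responsive gene of lipid synthesis. Angptl4, an inhibitor of lipoprotein lipase (1.45, SE 0.15, adjusted p = 0.013), and Plin2 (0.88, SE 0.11, adjusted p = 0.025) passed among PPAR targets. Of the 14 leukocyte markers 3 passed with the block, Ptprc, Itgam and Coro1a, of the 5 neutrophil markers 2, Ngp and Camp, and of the epithelial markers Krt5 and Krt19, whose lists summed to at most 7.93 and 33.9 CPM in any mouse. Ngp and Camp stood at 60.5 and 36.9 CPM in V338Y mouse 5 and at most at 2.75 and 1.68 CPM in the other old mice. Ngp, Camp, Krt5 and Krt19 entered this fit through the V338Y group alone, where they were high, so nothing is read from their calls.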

How the data were processed

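Single-end RNA-seq libraries of quadriceps muscle came from 15 mice, with 8250653 to 18968132 counts per mouse. The values deposited by the authors are expected counts from RSEM, 1 whole number for a gene and mouse, without scaling for depth or length. The submitters' processing notes name STAR 2.4.2a, CASAVA 1.8, bcl2fastq 1.8.4 and GRCm38. Reads shared between genes are divided by RSEM, so counts of close copies depend on each other. Precision is limited by depth for genes with few counts, and by the 3 or 4 mice of a group. Nothing states how the mice were related.

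All fits used edgeR 4.0.16 and limma 3.58.1 under R 4.3.3. A gene was tested where 50% or more of the mice of 1 compared group had 10 or more counts, following the methods of the study. TMM-normalized counts were compared with the quasi-likelihood test between the groups of a comparison, or over all 15 mice for the interaction, with Benjamini-Hochberg adjustment over all genes tested and a threshold of 0.05. Log2 scales used a pseudocount of 0.5. Levels per kilobase used the longest coding transcript of GENCODE on GRCm38. The code was tested on simulated data.

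The members and lists were chosen with earlier results of these data known. The text names the 6 members, the 5 genes most like each, up to 5 genes with the smallest adjusted p per list and comparison, and markers. Acot2 in the plot, Myh7, the brown fat genes highest or lowest in 1 mouse and the genes named with the block at 19 mo were chosen after their values were seen. At 19 mo same-numbered mice of the genotypes deviated together (r = 0.13, 0.24 and 0.40 for mice 2, 4 and 5), though wild-type mouse 2 and V338Y mouse 3 did so more (r = 0.47), a pairing that rests on this check and not on a label, so the fit with the mouse number as a block is given beside that comparison. V338Y mouse 3 has no partner there. Alternatives were RLE size factors, DESeq2 1.42.0, no filter, filterByExpr, a fit of all 15 mice, the block, leaving out each mouse in turn and, for r, other pseudocounts and no centring on group means. A result for 1 gene of the thyroid hormone list is not reported here.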

Additional observations from a re-analysis of the deposited data

Results flagged for a closer look

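A mouse was singled out when it lay apart from the other 3 of its group by more than Dixon's 95% limit on the gap as a share of the group's range. Of 36 checks over 3 groups of 4 mice, 10 exceeded it. For the members this restates how they were chosen, and is no test. The rate of about 1 in 20 by chance does not apply to CPM with several mice at 0, and the same animals recur.

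Wild-type mouse 1 at 3 mo stood above its group for Ucp1 (328 CPM), Cidea (68.9 CPM) and Elovl3 (19.8 CPM). V338Y mouse 1 at 3 mo stood above its group for Ucp1 (4.25 CPM), Cidea (8.45 CPM), Elovl3 (0.690 CPM) and the summed leukocyte markers (441 CPM). V338Y mouse 5 at 19 mo did so for Cidea (5.66 CPM) and the summed neutrophil markers (465 CPM). Elovl3 in V338Y mouse 2 at 19 mo (0.20 CPM) was the only value above 0 in its group and rests on 2 counts.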

How the results depend on the processing

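The numbers of genes passing with age (4940 in wild-type mice, 6505 in V338Y mice) stayed within 1.5 times of these values under every alternative except the replicate block in wild-type mice (2229 genes). Without 1 mouse they ran from 3431 to 4837 and from 5182 to 6448. Between genotypes at 3 mo 10 genes became 66 with DESeq2, 33 without a filter and 3 to 14 with 1 mouse left out. At 19 mo 6 genes became 62 with DESeq2, 14 without a filter, 110 with the block and 2 to 7 with 1 mouse left out. The interaction, at 0 genes, became 26 with DESeq2, 5 without a filter and 28 with the block, and stayed at 0 with any 1 mouse left out. The cause of these differences was not tested. Outside the genotype comparison at 19 mo the mouse numbers did not pair the samples, with r of same-numbered mice from -0.16 to 0.14. Of 195 alternative values for the log2 fold changes of members, 183 stayed within the spread between mice. A change of sign occurred in 10 of the 195, for 5 fold changes. These were Dio2 between genotypes at 3 mo (from -1.38 to 0.028 with 1 mouse left out), Cidea with age in V338Y mice (-3.58 to 0.98), and, close to 0, Ucp2 at 3 mo (-0.0060 to 0.12) and Ucp3 at 3 mo (-0.41 to 0.02) and 19 mo (-0.42 to 0.29). With the block, which rests there only on shared numbers, 14 of 13333 genes passed between genotypes at 3 mo, Ucp1 and Elovl3 among them. In the interaction 28 of 14128 passed with it, Cidea among them. Ucp1 and Elovl3 entered the 3 mo fit through the wild-type group alone, and Cidea the interaction through the young groups alone. They were high there, so nothing is read from these calls. Of 90 alternative values of r for the genes most like a member, 75 moved little and 15 more. Without centring on group means, r was lowest for Pcna-ps2 with Elovl3 (0.058), Atat1 with Dio2 (0.44) and Asns with Cidea (0.52). Next came Dusp18 and Polg with Ucp2 (0.54 and 0.58). Depth limits Ucp1 and Elovl3 in mice without counts and Cidea in old wild-type mice, which had 10 counts in all.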
